A study of Mus musculus with 4 samples.

Results

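The nuclear genes of oxidative phosphorylation (OXPHOS) encode most subunits of the mitochondrial respiratory chain and of ATP synthase. They were taken as the protein-coding genes of the mm9 annotation on chromosomes 1 to 19 whose symbols begin with Nduf followed by a, b, c, s or v and a digit, with Uqcr, with Cox and a digit from 4 to 8, or with Atp5, together with Sdha, Sdhb, Sdhc and Sdhd. The rule found 83 genes of the 21281 protein-coding genes on these chromosomes. By symbol alone, 35 were counted with complex I, 4 with complex II, 8 with complex III, 16 with complex IV and 15 with complex V. Ndufa4 and Ndufa4l2 were counted with complex I for their symbols, and the complex that holds each protein was not checked. The other 5 matches (Atp5l-ps1, Atp5s, Atp5sl, Cox4nb and Cox7a2l) share a name with the family and are not counted here as subunits. Cox7b, Ndufa1 and Ndufb11 lie on chromosome X and were not counted.

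ATAC-seq marks open chromatin by the insertion of sequencing adapters by the Tn5 transposase, and was done on im-scWAT cells, stromal vascular cells of subcutaneous white adipose tissue (scWAT) from 5-week-old mice that were immortalised with SV40 large T antigen and selected with puromycin. The cells carried either both normal Jmjd1a alleles (Jmjd1a +/+, WT) or 2 copies of a histidine-to-tyrosine knock-in allele that leaves this histone demethylase without catalytic activity (Jmjd1a HY/HY, HY). Each genotype was assayed at D0, when cells were confluent and undifferentiated, and at D8. By then they had received indomethacin, dexamethasone, 3-isobutyl-1-methylxanthine, rosiglitazone, insulin and T3 for 2 days and insulin, T3 and rosiglitazone for 6 more. Each of the 4 groups is 1 library, so no spread between replicates is known, no p-value is given, and every difference below is between libraries. WT and HY are separate cultures. They also differed in peaks on chromosome Y (1 in each WT library against 7 and 6 in HY D0 and D8), so allele and culture cannot be told apart. In these bulk libraries fewer open cells and less opening per cell cannot be told apart either.

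Electrons from NADH enter the respiratory chain at complex I and those from succinate at complex II. They pass through ubiquinone to complex III and through cytochrome c to complex IV, and ATP synthase (complex V) uses the proton gradient that complexes I, III and IV build. Beige and brown adipocytes are rich in mitochondria. Several complex IV subunits exist as a widely expressed form and as a form restricted to tissues such as muscle, brown fat or testis, and the promoters of many nuclear OXPHOS genes are known for binding sites of NRF1, GABP, YY1 and the estrogen-related receptors (ERR).

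The libraries held 71523 peaks (WT D0), 41228 (WT D8), 77994 (HY D0) and 48964 (HY D8). The genome-wide background rate, which scales with depth, was 0.659, 0.531, 0.708 and 0.494 reads, so the D8 libraries were shallower, at 0.806 and 0.75 of the depth of WT D0. A promoter level below is the read pileup at the highest summit from 1000 bp before to 100 bp after a transcription start site (TSS), divided by this rate, and is called the relative pileup. The highest summit was chosen in each library apart, so for some genes it lay at different sites in different libraries. Of 8 adipocyte markers, 3 had a promoter peak at D0 and 8 at D8 in both genotypes. Of 7 beige or brown markers, 2 had one in WT D0, 3 in HY D0 and 5 in each D8 library, and the promoters of Ucp1 and Dio2 had none in any library. Of 6 preadipocyte or fibroblast markers, 6 and 4 had a promoter peak at D0 in WT and HY and 1 in each at D8. No leukocyte or epithelial marker had one, of 4 and 3. Of 3 endothelial markers, 2 had one in WT D0, 1 in HY D0 and 1 in HY D8, and of 4 skeletal muscle markers only Acta1 had one, in WT D8 (pileup 10).

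The first question was whether OXPHOS promoters were open before and after differentiation. They were, in nearly all cases: in WT, 76 of 83 members had a promoter peak at D0 and 76 at D8 (91.6% each, exact binomial 95% interval 83.4 to 96.5), and in HY 73 at D0 (88.0%, 79.0 to 94.1) and 75 at D8 (90.4%, 81.9 to 95.7). Over all protein-coding genes the share was 54.3% at D0 and 50.4% at D8 in WT and 55.2% at D0 and 51.3% at D8 in HY. Intervals here and below cover counting error only. A promoter peak was present in all 4 libraries for 73 members, in some for 3 and in none for 7. Complexes II, III and V were complete, with 4 of 4, 8 of 8 and 15 of 15 genes open in every library. Complex I had 32 of 35 and complex IV 10 of 16.

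The 3 members with a promoter peak in only some libraries were Ndufs4, a complex I subunit of the arm that oxidises NADH, Ndufb4, a membrane-arm subunit, and Cox6b2, the testis form of Cox6b. Placement of the summit set all 3: counted by any overlap of a peak with the window, 76 members were open in every library and the same 7 in none. In HY D0 the Ndufb4 peak (pileup 33) had its summit at +130 bp, against +8, +6 and +1 bp in WT D0, WT D8 and HY D8, where the pileups were 26, 28 and 27. Ndufs4 (chr13:115078003-115178302, minus strand) had weak peaks throughout. Its WT summits lay at +23 and +50 bp (pileup 14 at D0 and 9 at D8) and its HY summits at +241 and +240 bp (13 and 8). Cox6b2 had promoter pileups of 8 and 10 for WT at D0 and D8 and 15 for HY at D8. HY D0 had a peak of 21 at +498 bp.

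The summits lay close to the start sites. Over the 300 promoter peaks counted by gene and library, the median summit was 28 bp upstream of the nearest TSS (quartiles -85.3 and 9), and 79.0% were within 100 bp. A TSS of another protein-coding gene on the opposite strand lay within 1000 bp upstream for 25 of the 83 members, for example Gabpa, which encodes the DNA-binding subunit of GABP, 119 bp from Atp5j, and Eef1b2 3 bp from Ndufs1. The share over all genes is not given, so this count does not set the members apart. Cox4i1 and Cox4nb start 178 bp apart and shared 1 promoter peak in each library. At such promoters the level of a peak cannot be given to one of the paired genes.

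Promoter peaks were narrower at D8. Their median width over members was 734 bp at D0 and 470.5 bp at D8 for WT, and 795 and 590 bp for HY. Over all genes it was 658, 447, 742 and 521 bp in the order WT D0, WT D8, HY D0, HY D8, so the same order held. In WT, 19 of 75 distinct promoter peaks at D0 were not covered to 50% by 1 peak at D8, but none was without some overlap. In HY this was 15 of 72, again with none untouched. Over the promoter peaks of all genes the shares not covered were 35.3% in WT and 33.8% in HY, both above the members' shares. The part of depth in these widths was not tested.

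**Figure D1:**
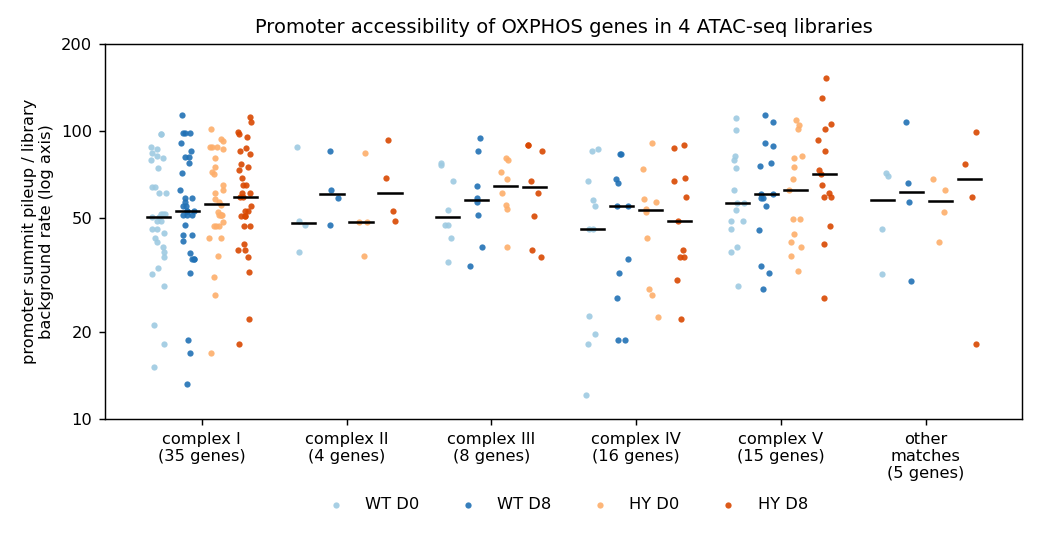
Promoter summit pileup divided by the library's background rate (log axis) for every member with a promoter peak, by complex and library. Each point is 1 gene and black bars are medians, which lie between 45.5 (complex IV, WT D0) and 70.8 (complex V, HY D8).

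Relative pileup over members had a WT median of 50.1 at D0 (range 12.1 to 111) and 56.5 at D8 (13.2 to 113), and an HY median of 55.1 at D0 (17.0 to 109) and 60.7 at D8 (18.2 to 152). Over all genes with a promoter peak the medians were 53.1, 52.8, 57.9 and 58.7. The members thus sat near the middle of all open promoters. Promoter pileups of at least 20 reads were found for 67 of 76, 59 of 76, 69 of 73 and 60 of 75 members in WT D0, WT D8, HY D0 and HY D8.

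The highest level was that of Atp5g1, one of 3 genes for the c subunit that forms the ring of ATP synthase. Its pileup was 73 at D0 and 60 at D8 in WT and 74 at D0 and 75 at D8 in HY. In HY it was 1.45-fold higher at D8 than at D0 (exact conditional binomial 95% interval of the pileups 1.04 to 2.03) and in WT 1.02-fold (0.713 to 1.46). On the deposited fold enrichment, which divides by the background around the peak, these ratios were 1.09 in HY and 0.924 in WT. Atp5d, the delta subunit of the rotating stalk, had 66, 48, 77 and 52 reads in the same order, and Atp5j, coupling factor 6 of the stator, had 52, 57, 57 and 64. The Atp5d values come from different sites in the genotypes. Its WT summits lay at +32 and +26 bp of the TSS at chr10:79604202, its HY summits at -56 and -31 bp of the TSS at chr10:79605060. Ndufs8 and Ndufv1, iron-sulfur and NADH-binding subunits of complex I, completed the 5 highest, with 64, 60, 66 and 49 and with 58, 52, 72 and 48 reads. The relative pileups of these 5 lay between 78.9 and 152, and neighbours in their order overlapped across libraries.

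At the other end, Ndufa9, an accessory subunit of complex I, had only 10 reads at D0 and 7 at D8 in WT and 12 at D0 and 9 at D8 in HY (relative pileup 15.2, 13.2, 17.0 and 18.2). Ndufc2, also an accessory subunit, had 12, 10, 19 and 11, and the complex IV subunits Cox6c and Cox6b1 had 12, 14, 19 and 11 and 15, 10, 20 and 18. Cox7a1 had 13, 17, 16 and 18. For 2 or fewer members per library the promoter pileup was below 10 reads, where a change of a few reads moves the ratio widely.

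By complex, the median relative pileup of complex I was 50.1, 52.8, 55.8 and 58.7 in WT D0, WT D8, HY D0 and HY D8. For complex II it was 47.8, 60.3, 48.0 and 60.7, and for complex III 50.1, 57.5, 64.3 and 63.8. Complex IV had 45.5, 54.6, 53.0 and 48.6 and complex V, whose genes encode the F1 head, the stalks and the c ring, had 56.2, 60.3, 62.2 and 70.8. Complex V thus had the highest median among the complexes in WT D0 and HY D8, complex III in HY D0, and complexes II and V shared 60.3 in WT D8.

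Complex II, unlike the others, has only nuclear genes and also serves the citric acid cycle. Sdha, its flavoprotein, had pileups of 25 at D0 and 31 at D8 in WT and 26 at D0 and 26 at D8 in HY. Its relative pileup at D8 was 1.54-fold that at D0 in WT (0.879 to 2.72) and 1.43-fold in HY (0.799 to 2.57). Sdhb, the iron-sulfur subunit, was the most open of the 4, with 58, 45, 59 and 46 reads and ratios of 0.963 (0.637 to 1.45) and 1.12 (0.743 to 1.67). The membrane anchor Sdhd had 31, 33, 34 and 34 reads and ratios of 1.32 (0.784 to 2.23) and 1.43 (0.864 to 2.38), while the other anchor, Sdhc, had 32, 25, 34 and 24 and ratios of 0.970 (0.551 to 1.69) and 1.01 (0.574 to 1.76). All 8 intervals include 1. By fold enrichment the day ratios in WT and HY were 1.13 and 0.974 for Sdha and 1.26 and 1.01 for Sdhd.

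**Figure D2:**
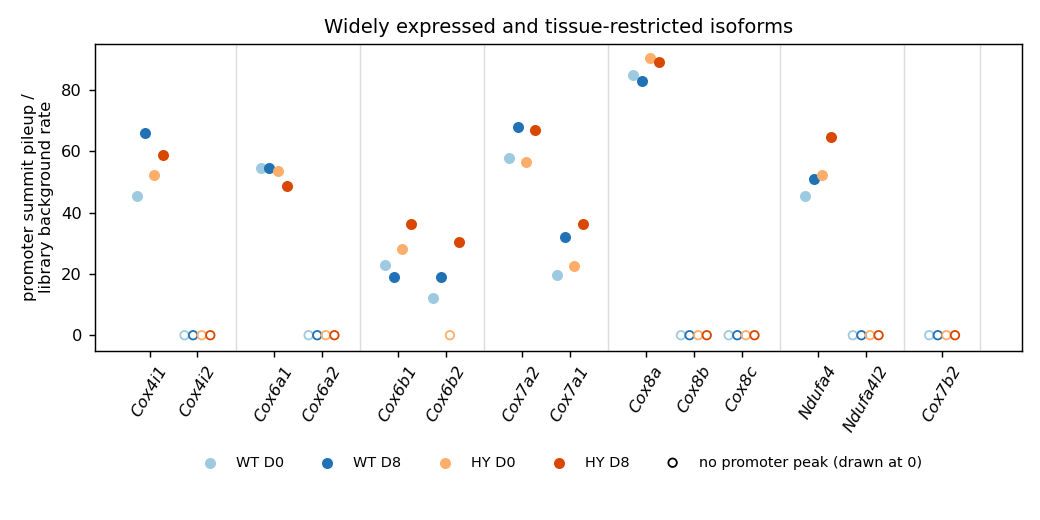
Promoter summit pileup divided by the library's background rate for widely expressed isoforms and, beside each, its tissue-restricted forms. Filled points are the 4 libraries and open points at 0 mark a library without a promoter peak, as for Cox4i2, Cox6a2, Cox7b2, Cox8b, Cox8c and Ndufa4l2 in all 4.

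The 7 members without a promoter peak in any library were Cox4i2, Cox6a2, Cox7b2, Cox8b, Cox8c, Ndufa4l2 and Atp5l-ps1. Cox4i2 is the lung form of Cox4, Cox6a2 and Cox8b are the heart, muscle and brown fat forms of Cox6a and Cox8, Cox7b2 and Cox8c are testis forms, and Ndufa4l2 is a hypoxia-responsive relative of Ndufa4. Atp5l-ps1 carries a pseudogene symbol. Of the 8 isoform genes of restricted expression listed, only Cox7a1 had a promoter peak in every library, and Cox6b2 had one in 3. Peaks outside the promoter window were nonetheless called near most of these closed genes. Ndufa4l2 had 2 at D0 and 4 at D8 in WT and 3 at D0 and 5 at D8 in HY. Cox8b had 2 at D0 and 1 at D8 in each genotype, and Cox8c had 1 in every library but WT D0. Cox6a2 had 1 upstream in all 4 libraries (9, 8, 12 and 7 reads in WT D0, WT D8, HY D0 and HY D8), Cox4i2 1 in WT D8 only (7), Cox7b2 1 in HY D0 only (6) and Atp5l-ps1 none. The widely expressed partners Cox4i1, Cox6a1, Cox6b1, Cox7a2, Cox8a and Ndufa4 had a promoter peak in all 4 libraries.

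Cox7a1, the muscle and brown fat form of Cox7a, is transcribed from the plus strand of chr7:30969190-30971047. Its summit was within 41 bp of the TSS in each library. The pileups were 13 at D0 and 17 at D8 in WT and 16 at D0 and 18 at D8 in HY, and the relative pileups 19.7, 32.0, 22.6 and 36.4. Both D8 values lay above both D0 values. The D8 to D0 ratio was 1.62 in WT (0.742 to 3.63) and 1.61 in HY (0.775 to 3.38), intervals that include 1 at this depth. Cox7a2, its partner, had relative pileups of 57.7, 67.8, 56.5 and 66.8 and ratios of 1.18 (0.724 to 1.91) and 1.18 (0.722 to 1.92). Cox8a, partner of the closed Cox8b and Cox8c, kept 85.0, 82.9, 90.5 and 89.1. The 200 bases upstream of the Cox7a1 TSS (mm9 chr7:30968990-30969189, plus strand) are shown because this is the restricted isoform that was open. Capitals mark its matches to CCAAT, the core bound by NF-Y, read here on the opposite strand.
Cox7a1: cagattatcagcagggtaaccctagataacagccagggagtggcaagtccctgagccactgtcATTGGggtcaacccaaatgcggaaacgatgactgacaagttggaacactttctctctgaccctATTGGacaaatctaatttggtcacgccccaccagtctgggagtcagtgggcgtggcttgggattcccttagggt

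The next question was how the promoters differed between D8 and D0. Among the 76 members open at both days in WT, the median log2 ratio of relative pileup was 0.08 (quartiles -0.11 and 0.26, range -0.44 to 0.70), and 43 members lay above 0. Over the 10182 genes open at both days it was -0.03, with 46.9% above 0. In HY the median over 73 members was 0.12 (quartiles -0.07 and 0.26, range -1.17 to 0.72) with 47 above 0, and 0.03 over 10375 genes with 53.8% above 0. The summed promoter pileups of members, 2372 reads at D8 against 2749 at D0 in WT and 2349 against 3085 in HY, gave depth-scaled ratios of 1.07 (1.01 to 1.13) and 1.09 (1.03 to 1.15). The peak shared by Cox4i1 and Cox4nb enters these sums once for each gene. These intervals take the depth scaling as exact, and no summed ratio over all genes is given beside them. On the deposited fold enrichment, which divides by the local instead of the genome-wide background, the medians over members were -0.04 in WT and -0.13 in HY, and those over all genes -0.09 and -0.10. The sign of these small shifts thus depends on the scale. In WT the members' median lay above that of all genes on both scales, while in HY it lay above on relative pileup and below on fold enrichment. The sign of the day ratio differed between the scales for 23 of 76 members in WT and 31 of 73 in HY. This was not counted over all genes, whose medians also moved between the scales, so it does not set the members apart.

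Few members passed a 1.5-fold difference, the size rule used in place of a test. In WT, 4 of 76 were at least 1.5-fold higher at D8 (Atp5s, Cox6b2, Cox7a1 and Sdha) and 0 were lower, where 4.97% and 12.2% of all genes passed in those directions. In HY, 6 of 73 were higher (Atp5g3, Atp5j, Atp5s, Cox7a1, Ndufa13 and Ndufc1) and 3 lower (Atp5sl, Ndufs3 and Uqcrb), where 5.43% and 12.2% of all genes passed. The peak counted for Ndufa13 had its summit 696 to 726 bp upstream of the TSS and did not reach the TSS in any library. Atp5s and Cox7a1 passed in both genotypes on this scale, and no member was lower in both. On the deposited fold enrichment neither passed in either genotype: the log2 day ratio was 0.14 in WT and 0.17 in HY for Atp5s and 0.13 and 0.58 for Cox7a1. On that scale 0 members were higher and 1 lower in WT, where 2.09% and 8.29% of all genes passed, and 1 was higher and 6 lower in HY, where 1.82% and 9.77% passed. Of the 73 members open in all 4 libraries, 30 were above 0 in both genotypes, 15 below 0 in both and 28 of opposite sign. Over all genes open in the 4 libraries, 29.4% had opposite signs. On fold enrichment the signs were opposite for 28 of the 73 as well, and for 30.9% of all genes.

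**Figure D3:**
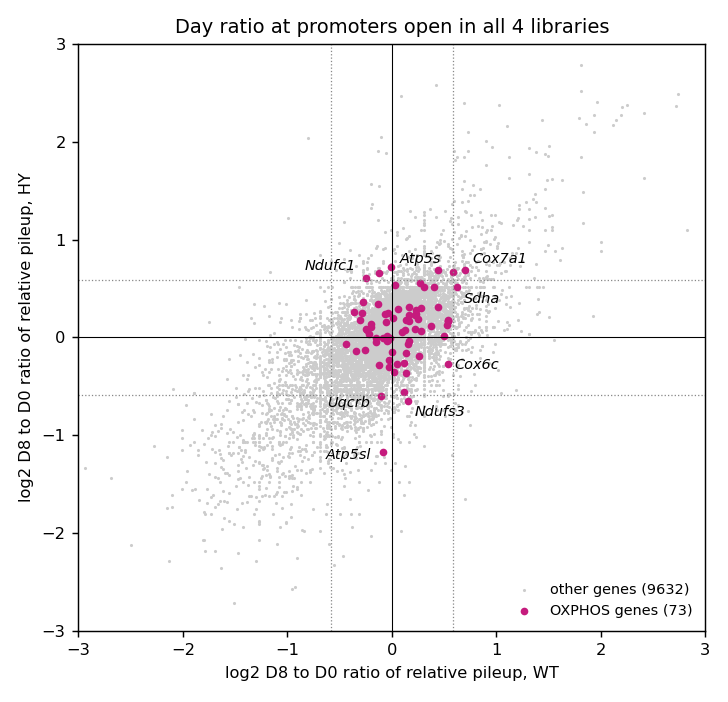
Log2 ratio of relative promoter pileup, D8 to D0, in WT (horizontal) and HY (vertical) for genes open in all 4 libraries. Grey points are other genes, magenta points the 73 members, and dotted lines mark 1.5-fold. The members lie around the origin, with Cox7a1 and Atp5s past the line in both genotypes on this scale, which they do not reach on the deposited fold enrichment.

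Atp5s, an ATP synthase coupling factor by name, had pileups of 47 at D0 and 57 at D8 in WT and 44 at D0 and 49 at D8 in HY. The D8 to D0 ratio was 1.505 in WT (1.005 to 2.264) and 1.595 in HY (1.04 to 2.453). The other members with the highest mean day ratio were Sdha, Atp5j and Sdhd. The D8 to D0 ratio of Atp5j was 1.36 in WT (0.918 to 2.02) and 1.61 in HY (1.11 to 2.34), but on the deposited fold enrichment its log2 ratios were -0.15 and 0.03.

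The lowest mean day ratios were those of Atp5sl, Uqcrb, Ndufa8, Ndufs3 and Cox7c. Atp5sl had 21 reads at D0 and 16 at D8 in WT and 29 at D0 and 9 at D8 in HY, with ratios of 0.946 in WT (0.461 to 1.90) and 0.444 in HY (0.185 to 0.964). Uqcrb, the ubiquinone-binding subunit of complex III, had 28, 21, 39 and 18 reads and ratios of 0.931 (0.502 to 1.70) and 0.661 (0.356 to 1.18). Ndufs3, a core subunit of complex I, had 19, 17, 36 and 16, so its value in HY D0 stood above the other 3. Cox7c (30, 19, 30 and 19) and Ndufa8 (32, 19, 30 and 20) had WT ratios of 0.786 (0.418 to 1.44) and 0.737 (0.395 to 1.34). Among the day ratios of these 5 genes only the HY interval of Atp5sl lies below 1.

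Within the complexes the median log2 day ratio was 0.09 in WT and 0.08 in HY for complex I, 0.18 and 0.34 for complex II, 0.12 and 0.02 for complex III, 0.00 and 0.20 for complex IV and 0.03 and 0.18 for complex V. All complexes thus stayed within 1.5-fold at the median. By fold enrichment these medians lay between -0.17 (complex III in HY) and 0.09 (complex II in WT), and in HY all 5 were below 0.

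HY was compared with WT at each day. At D0 the median log2 HY to WT ratio was 0.12 over 73 members (range -0.31 to 0.82) and 0.09 over 11069 genes. At D8 it was 0.10 over 75 members (range -0.73 to 0.95) and 0.15 over 10231 genes. At D0, 1 member, Ndufs3, was at least 1.5-fold higher in HY and 0 were lower, where 4.93% and 1.76% of all genes passed. At D8, 4 were higher (Cox6b1, Cox6b2, Ndufc1 and Uqcr10) and 1 lower (Atp5sl), where 6.63% and 1.34% of all genes passed. On the deposited fold enrichment Ndufs3 passed at D0 (2.57% of all genes higher, 0.813% lower). At D8 only Cox6b1 and Ndufc1 passed on that scale (2.18% higher, 1.19% lower), since the log2 ratio was 0.51 for Cox6b2, 0.30 for Uqcr10 and -0.58 for Atp5sl. No member passed in the same direction at both days.

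Cox6b1, which joins the monomers of complex IV, had the highest mean HY to WT ratio, with 1.24 at D0 (0.604 to 2.61) and 1.93 at D8 (0.846 to 4.69). Atp5f1, the b subunit of the stator, had pileups of 35 at D0 and 31 at D8 in WT and 53 at D0 and 42 at D8 in HY and ratios of 1.41 (0.903 to 2.23) and 1.46 (0.893 to 2.40). For the small complex III subunit Uqcr10 the ratios were 1.206 (0.7997 to 1.83) and 1.504 (0.919 to 2.49), for the accessory complex I subunit Ndufc1 0.998 (0.576 to 1.73) and 1.81 (0.995 to 3.38), and for Ndufs3 1.76 (0.985 to 3.26) and 1.01 (0.478 to 2.13). Each of these intervals includes 1. The lowest mean ratios, of Atp5sl, Atp5s, Atp5e, Ndufv3 and Ndufs8, came from single values between 0.604 (Atp5sl at D8) and 1.29 (Atp5sl at D0).

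A set of members was chosen because their RNA or protein was assayed elsewhere in the project: Ndufb8, Uqcrc2, Cox5a, Cox4i1, Atp5a1, Atp5j2, Sdhb and Ndufs8. Their promoters were open in every library. Ndufb8 and Uqcrc2, subunits of complexes I and III, had pileups of 21, 19, 22 and 18 and of 31, 27, 43 and 25 in WT D0, WT D8, HY D0 and HY D8. Cox5a and Cox4i1 of complex IV had 57, 44, 52 and 43 and 30, 35, 37 and 29. Atp5a1, the alpha subunit of the F1 head, had 26, 18, 28 and 20 and Atp5j2, a membrane subunit of ATP synthase, 25, 17, 31 and 23. With Sdhb and Ndufs8 above, none of the 8 differed by 1.5-fold between days or genotypes: the ratios ran from 0.833 (Uqcrc2, D8 to D0 in HY) to 1.45 (Cox4i1, D8 to D0 in WT, and Atp5j2, HY to WT at D8).

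Outside the promoter window, peaks were found near about the same share of members in each library. Within 10 kb of a TSS, another peak was found for 48 members at D0 and 49 at D8 in WT and 53 at D0 and 48 at D8 in HY (57.8%, 59.0%, 63.9% and 57.8%). Over all genes the shares were 55.8%, 43.6%, 58.2% and 47.3%. These were 90, 76, 99 and 79 distinct peaks, of which 27, 28, 30 and 24 sat in the promoter window of another protein-coding gene. Introns held 42, 31, 50 and 33 of the summits. Atp5b, the beta subunit of ATP synthase and a neighbour of Baz2a, had the most in WT D0, HY D0 and HY D8 (6, 6 and 7), and in WT D8 it had 5, as did Cox6a1.

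A peak was called specific to a library when the other list had no single peak over 50% or more of its length. In WT, 52 of 90 member peaks at D0 (57.8%) were specific against D8 and 18 of 76 at D8 (23.7%) against D0. The shares for peaks outside promoters near all genes were 71.5% and 28.2%. In HY, 56 of 99 at D0 (56.6%) and 16 of 79 at D8 (20.3%) were specific, against 70.8% and 28.6% near all genes. Between genotypes, 38 of 99 HY D0 peaks (38.4%) were specific against WT D0 and 16 of 90 WT D0 peaks (17.8%) against HY D0, where all genes gave 33.7% and 19.5%. At D8 the counts were 31 of 79 in HY (39.2%) and 13 of 76 in WT (17.1%), where all genes gave 38.0% and 20.6%. The D8 and WT shares depend on the rule. When each peak of a pair had to cover 50% of the other, 51.3% of D8 peaks near members were specific against D0 in WT and 46.8% in HY, and near all genes 59.6% and 60.4%. Over the other overlap rules and list filters the WT share against HY ran from 5.97% to 34.4% at D0, where all genes gave 10.8% to 34.0%, and from 9.09% to 36.8% at D8, where all genes gave 11.0% to 34.9%. The longer list of each pair held the larger share.

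Of the WT peaks near members, 7 of 76 at D8 (9.21%) and 24 of 90 at D0 (26.7%) were specific to their day and overlapped a peak equally specific in HY. Near all genes the shares were 16.7% and 47.0%, with the members below in both. None of the 7 had any overlap with a D0 peak of its genotype. The highest lay 4286 bp (WT) and 4433 bp (HY) downstream of the TSS of Uqcrq, a small complex III subunit, beyond the end of the gene at chr11:53239437-53239695 in WT (pileup 28) and chr11:53239445-53239723 in HY (26). A second one near Uqcrq, at 5469 and 5399 bp, had 17 and 14 reads. Ndufa4l2, without a promoter peak, had a D8 peak over an exon of its own at +1843 and +1841 bp, with 28 reads in WT and 24 in HY. The others in the first 5 were an intronic peak 226 bp into Atp5g1 (21 and 17) and one at -8966 and -8968 bp from Cox8a in an exon of Naa40 (15 and 20). Another, near Ndufa3, had 12 reads in WT and 21 in HY. The 200 bases around the WT summit of the Uqcrq peak (mm9 chr11:53239550-53239749, plus strand) follow. They held no match to any of the 7 shorter motifs listed further on.
Uqcrq: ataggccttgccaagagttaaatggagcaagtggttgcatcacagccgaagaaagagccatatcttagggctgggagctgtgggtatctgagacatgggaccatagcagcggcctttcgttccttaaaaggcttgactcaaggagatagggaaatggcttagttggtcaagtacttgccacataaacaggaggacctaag

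**Figure D4:**
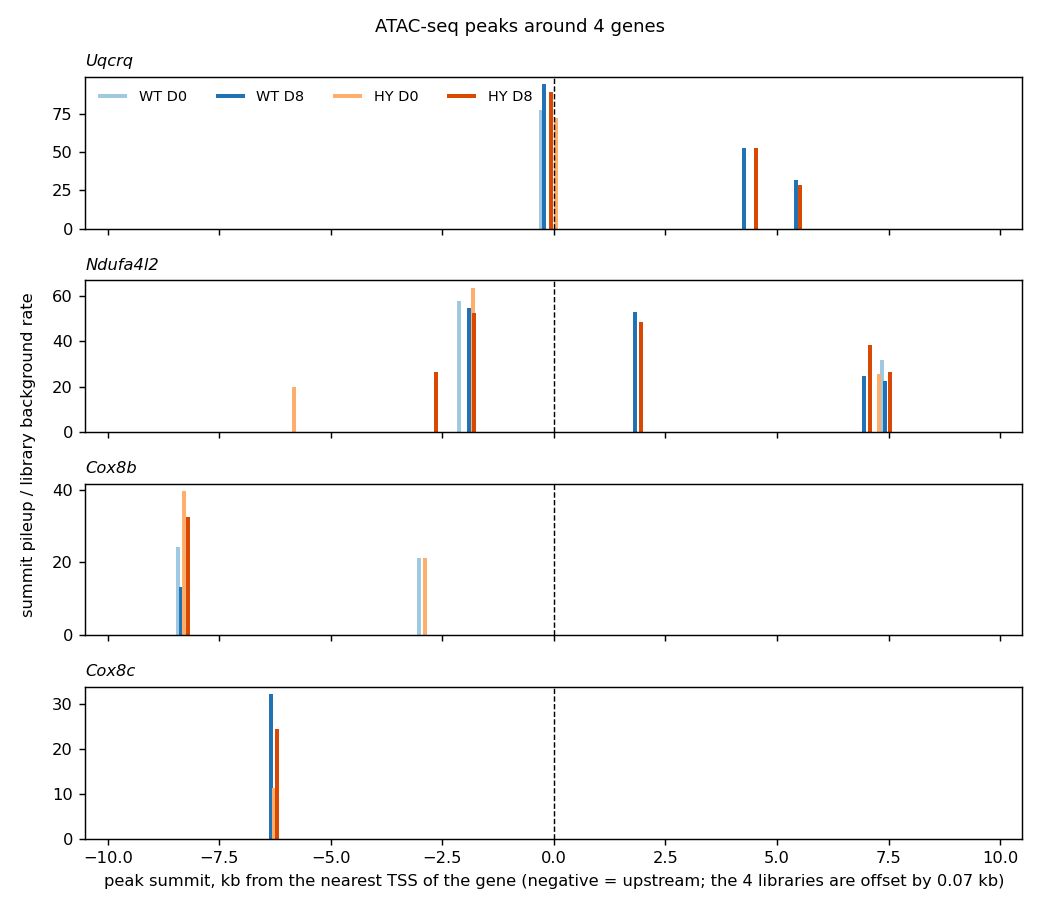
Peak summits within 10 kb of the TSS of Uqcrq, Ndufa4l2, Cox8b and Cox8c (horizontal axis, kb from the nearest TSS) with their pileup divided by the library's background rate. Only Uqcrq has a peak at the TSS, and its peaks downstream of the gene are drawn in the D8 libraries alone.

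Of the 24 peaks specific to D0 in both genotypes, 13 had no overlap at D8 and 5 were at the promoter of another gene. The highest was at the Baz2a promoter, 2565 and 2528 bp from the Atp5b TSS (44 reads in WT and 51 in HY), and was still touched by a peak at D8. Next was a broad peak at -2033 and -1855 bp from Ndufa4l2 (38 and 45), which D8 peaks of 29 and 26 reads also touched. Others were one at -1950 and -1988 bp from Atp5g2 (31 and 37) and a second one in Baz2a (26 and 34). Sdhb had 3 such peaks, upstream and in an intron, and Cox6c 2. Near the closed gene Cox8b (chr7:148084842-148086345, minus strand) a D0 peak at -2915 and -2919 bp had 14 reads in WT and 15 in HY and none was called there at D8. Another, with summits from -8324 to -8315 bp, was called in every library with 16, 7, 28 and 16 reads in WT D0, WT D8, HY D0 and HY D8. The D0 peak of Cox8b is given as the peak nearest to this brown fat isoform (mm9 chr7:148089160-148089359, plus strand), without a match to the shorter motifs.
Cox8b: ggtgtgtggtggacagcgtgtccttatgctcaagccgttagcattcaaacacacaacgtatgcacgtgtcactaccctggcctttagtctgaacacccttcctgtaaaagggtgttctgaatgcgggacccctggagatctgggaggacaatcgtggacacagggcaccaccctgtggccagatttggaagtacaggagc

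Cox8c, the testis form, had 1 peak, with summits from -6315 to -6310 bp and 17 reads in WT at D8 and, for HY, 8 at D0 and 12 at D8. It was not called in WT D0.

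Promoter sequence was searched from 250 bp before to 50 bp after the TSS nearest to the highest promoter summit, on both strands, for 7 motifs in a strict and a shorter form. NRF1 (strict CGCATGCG) matched 9 of 83 member promoters (10.8%, 5.08 to 19.6), 2.40% of all 21281 promoters and 3.72% of those open in any library. GABP and other ETS factors (CCGGAAGT) matched 8 (9.64%, 4.25 to 18.1) against 5.19% and 8.14%. YY1 (AAGATGGCG) matched 7 (8.43%, 3.46 to 16.6) against 2.04% and 3.14%. Within 100 bp of the highest summit instead, NRF1 matched 4 of 76 members (5.26%, against 2.78% of all genes with a promoter peak) and YY1 6 of 76 (7.89% against 2.23%). ERR (TCAAGGTCA) matched 2 (2.41%, 0.293 to 8.43) against 0.296% and 0.252%. SP and KLF (GGGGCGGG) matched 21 (25.3%, 16.4 to 36.0) against 22.8% and 33.8%, CREB (TGACGTCA) 4 (4.82%, 1.33 to 11.9) against 2.39% and 3.52%, and NF-Y (CCAATNAG) 8 (9.64%, 4.25 to 18.1) against 8.07% and 10.4%. A match is a description of the letters and not a binding site.

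**Figure D5:**
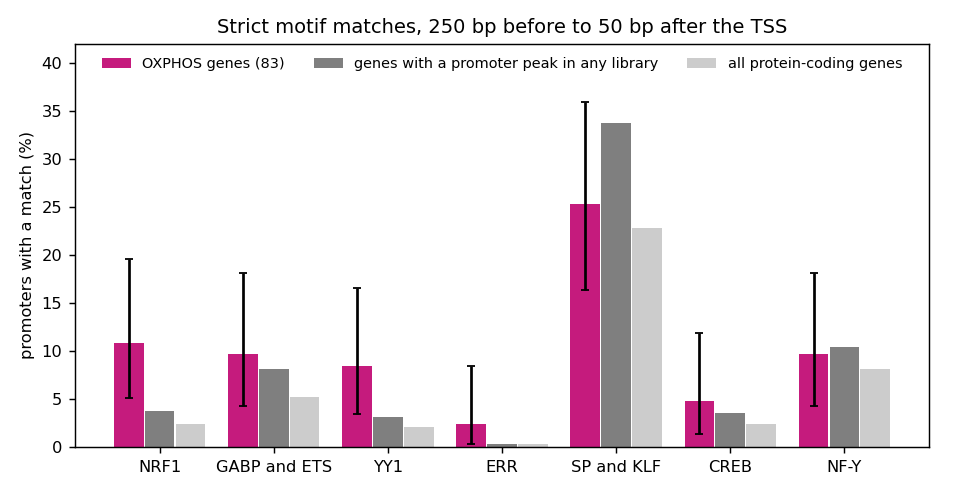
Share of promoters with at least 1 strict motif match, in percent, for the 83 members (with exact binomial 95% intervals), for genes with a promoter peak in any library and for all protein-coding genes. In this window around the TSS the members' interval for NRF1 and for YY1 lies above both other shares.

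In the shorter form NRF1 (CGCANGCG) matched 33.7% of members, 11.2% of all and 17.5% of open promoters. The shorter ERR form (AAGGTCA) matched 13.3%, 3.76% and 2.69%, and the shorter YY1 form (AAGATGG) 15.7%, 6.91% and 7.05%. For SP and KLF (GGGCGG) the shares were 45.8%, 46.6% and 66.7%, with the members below the open promoters. The median GC content of the 300-base windows was 56.0% in members, 56.7% in all genes and 62.0% in open genes. Of the 83 members, 39 held no strict match of any kind, 30 held 1 kind, 13 held 2 and 1 held 3. The 7 members without a promoter peak had a median CpG observed-to-expected ratio of 0.437, against 0.845 in the 76 with one.

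Strict matches to NRF1, YY1, ERR and GABP and ETS are shown for some members, as examples of the sequences the shares rest on. No strict match to SP and KLF or to CREB is shown. NRF1 matched Atp5g2, Atp5j, Atp5k, Atp5l, Cox6a1, Cox6c, Ndufa11, Uqcr11 and Uqcrc1. Atp5j also held YY1 and stood among the highest levels, while Cox6c was among the lowest, so the match did not go with 1 level. Each line below gives 30 bases of mm9, read on the strand of the gene, with the match in capitals. Atp5j lies at chr16:84835350-84835379 for NRF1 (118 bp upstream) and at chr16:84835290-84835319 for YY1 (59 bp upstream), Cox6c at chr15:35867924-35867953 (178 bp upstream), Atp5g3 at chr2:73749416-73749445 (96 bp upstream), Ndufs3 at chr2:90744860-90744889 (19 bp upstream) and Uqcr11 at chr10:79869614-79869643 (57 bp upstream).
Atp5j, NRF1: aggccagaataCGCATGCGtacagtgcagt
Cox6c, NRF1: atcgactcttgCGCATGCGtgctgctggaa
Atp5j, YY1: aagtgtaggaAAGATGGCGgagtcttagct
Atp5g3, ERR: tgttacaaagTGACCTTGAgcgtcttcccc
Ndufs3, GABP and ETS: tgcacatttccACTTCCGGtccgtgccctt
Uqcr11, GABP and ETS: ttctctcctccCCGGAAGTagatgtcaatg

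Longer stretches upstream of the TSS, up to the next annotated exon, are given for a pair among the highest promoters and for a pair with an NRF1 match, chosen after their values were seen. Atp5g1 (mm9 chr11:95936985-95937184) and Ndufs8 (chr19:3912718-3912917), both on the minus strand, held NF-Y matches at 87 bp and at 177 and 127 bp upstream. Atp5g2 (chr15:102501479-102501678, minus strand) held NRF1 at 41 bp, and Ndufa11 (chr17:56857123-56857184, plus strand, the 62 bases up to the divergent gene Vmac) at 59 bp. Capitals mark strict matches.
Atp5g1: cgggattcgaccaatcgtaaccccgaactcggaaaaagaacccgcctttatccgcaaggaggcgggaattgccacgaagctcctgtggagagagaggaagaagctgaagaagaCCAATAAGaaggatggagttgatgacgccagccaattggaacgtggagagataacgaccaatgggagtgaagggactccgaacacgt
Ndufs8: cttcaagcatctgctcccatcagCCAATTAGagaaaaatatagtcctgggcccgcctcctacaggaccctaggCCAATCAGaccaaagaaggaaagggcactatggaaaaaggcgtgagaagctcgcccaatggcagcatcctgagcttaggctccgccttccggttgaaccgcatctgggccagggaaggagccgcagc
Atp5g2: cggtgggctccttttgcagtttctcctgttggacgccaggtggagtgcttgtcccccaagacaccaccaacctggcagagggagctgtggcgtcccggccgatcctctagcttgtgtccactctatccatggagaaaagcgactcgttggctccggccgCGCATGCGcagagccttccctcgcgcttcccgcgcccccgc
Ndufa11: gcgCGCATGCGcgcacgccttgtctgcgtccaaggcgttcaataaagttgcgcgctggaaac

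Other genes of the pathway, outside the symbol rule, were taken from lists. Of 33 assembly factors for complexes I to V, 30 had a promoter peak at D0 and 31 at D8 in WT and 32 at D0 and 32 at D8 in HY. Sco2, a copper chaperone of complex IV, had none in any library. Their median log2 day ratio was -0.03 over 29 in WT and 0.10 over 32 in HY. None was 1.5-fold higher at D8 in either genotype, 3 were lower in WT (Ndufaf1, Coa3 and Atpaf1) and 1 in HY (Cox11). Of all genes, 4.97% were higher and 12.2% lower in WT and 5.43% and 12.2% in HY. By fold enrichment the medians were -0.12 and -0.11, the same 3 genes passed in WT, and in HY Atpaf1 (log2 ratio -0.95) passed in place of Cox11 (-0.53). Between genotypes the median log2 HY to WT ratio of the assembly factors was 0.13 over 30 at D0 and 0.29 over 31 at D8, against 0.09 and 0.15 over all genes. None passed 1.5-fold at D0, and at D8 4 were higher in HY (Ndufaf1, Lyrm7, Sco1 and Coa3) and 0 lower, where 6.63% and 1.34% of all genes passed. By fold enrichment only Ndufaf1 passed at D8, where 2.18% of all genes were higher, and the median was 0.06 against 0.03 over all genes. Coa3, a complex IV assembly factor, had 40, 15, 45 and 21 reads in WT D0, WT D8, HY D0 and HY D8, and its log2 day ratio was -1.10 in WT and -0.58 in HY, or -0.82 and -0.21 on fold enrichment. Cytochrome c, encoded by Cycs, had 57, 61, 57 and 61 reads, with log2 day ratios of 0.41 and 0.62 on relative pileup but -0.31 and -0.17 on fold enrichment.

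The regulators of these genes were open as well, with 10 of 11 having a promoter peak in both D0 libraries and 11 of 11 in both D8 libraries. The exception was Ppargc1a, encoding the coactivator PGC-1alpha, with no promoter peak called at D0 and 14 and 15 reads at D8 in WT and HY. Ppargc1b, which encodes its relative PGC-1beta, had 16, 23, 29 and 23 reads in WT D0, WT D8, HY D0 and HY D8. The log2 day ratios of Ppargc1b depended on the scale, with 0.84 and 0.18 for relative pileup and -0.23 and -0.80 for fold enrichment in WT and HY. Its log2 HY to WT ratio at D0 was 0.76 on relative pileup and 0.65 on fold enrichment. On each scale Ppargc1b was the 1 regulator of 10 at least 1.5-fold higher in HY at D0, where 4.93% and 2.57% of all genes passed. At D8 its ratios were 0.10 and 0.08, and 0 of 11 regulators passed. The promoter peak counted for Gabpa is the one it shares with Atp5j, so it adds no value of its own. The factors Nrf1, Esrra and Yy1 and the mitochondrial transcription genes Tfam, Tfb1m, Tfb2m and Polrmt had day ratios within 1.5-fold in both genotypes on either scale.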

How the data were processed

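ATAC-seq peak lists of 4 libraries, 1 per group as labelled, were used. Per the labels, the authors' processing named Bowtie2, Picard, SAMtools and deepTools with mm9. The methods give ATAC-seq and ChIP-seq 1 procedure, with HOMER or MACS for ChIP-seq peaks. Which of them made these lists, its threshold and any Tn5 shift are not given in the sources used here. On the MACS formula the deposited fold enrichment is a ratio of summit pileup plus 1 to local background plus 1, and the deposited -log10 p and -log10 q values belong to the same summit. The deposited score column was not used. Pileup and local background were solved from fold and p for each peak on that formula, which succeeded within 0.002 for 100% of peaks, and the lowest background gave relative depth (5 reads, or 4 in HY D8, made the lowest peak).

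Members, lists and motifs were chosen with earlier results of these data known. Genes came from the NCBIM37 (mm9) GENCODE annotation, and 7 of the 33 assembly factors were matched through RefSeq synonyms. Members with several records of 1 symbol were merged (84 records, 83 symbols), and any TSS of a gene counted (52 members had more than 1). Named genes were members lacking a promoter peak in a library, the 5 highest and 5 lowest levels, mean day ratios and mean genotype ratios, complex II, isoforms of restricted expression with partners, genes the study measured, and the 5 strongest non-promoter peaks specific to each day in both genotypes. Other names were chosen after their values were seen. Some items that the rules name are not reported here. No test across libraries was run: each group is 1 library, and a fit of day plus genotype would leave 1 residual degree of freedom and take the interaction as error. Ratios of 2 pileups carry exact conditional binomial 95% intervals, and shares exact Clopper-Pearson intervals. The solver and intervals were tested on simulated data. Alternatives covered windows, summit or overlap, q of at least 5 on the -log10 scale, list length, scaling, threshold, overlap rule and motif form. Scripts used Python 3.11.15, NumPy 2.4.6, pandas 2.3.3, SciPy 1.17.1 and pysam 0.24.0.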

Additional observations from a re-analysis of the deposited data

Results flagged for a closer look

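Of the 48 named members, 38 had a promoter peak in all 4 libraries, and in 15 of these the log2 D8 to D0 ratio had opposite signs in WT and HY. Over all genes with a promoter peak in the 4 libraries, 29.4% had opposite signs, and 30.9% on the deposited fold enrichment. Which genes did so depends on the scale. On fold enrichment 10 of the 15 had the same sign in both genotypes. Of the 15, only Cox6c, Ndufc1, Ndufv3, Uqcr10 and Uqcrc2 kept opposite signs. Other named members, such as Atp5g1 and Sdha, had opposite signs on fold enrichment alone. Over the 73 members open in all 4 libraries the count was 28 on either scale. With 1 library per group the difference between the genotypes was not tested. The HY minus WT difference of the log2 ratio of relative pileup is given with the WT and the HY ratio after it. It was positive for Ndufc1 0.86 (-0.25 and 0.61), Cox6b1 0.64 (-0.27 and 0.37), Atp5j2 0.33 (-0.24 and 0.09), Uqcr10 0.32 (-0.24 and 0.08), Ndufa9 0.31 (-0.20 and 0.10), Cox5a 0.31 (-0.06 and 0.24), Atp5a1 0.25 (-0.22 and 0.03), Sdhb 0.21 (-0.05 and 0.16), Sdhc 0.0601 (-0.04 and 0.02). It was negative for Cox6c -0.80 (0.53 and -0.27), Ndufs3 -0.80 (0.15 and -0.65), Ndufv3 -0.45 (0.26 and -0.19), Uqcrc2 -0.38 (0.11 and -0.26), Ndufc2 -0.32 (0.05 and -0.27), Ndufv1 -0.22 (0.15 and -0.07). Ndufc1 and Cox6b1 had the largest positive and Cox6c and Ndufs3 the largest negative differences. Cox6b1, Cox6c, Ndufa9 and Ndufc2, with 7 to 20 reads per library, rest on few reads.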

How the results depend on the processing

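Promoter openness moved little: a window from 2000 bp before to 1000 bp after a start site gave 77 members open in all 4 libraries and 5 in none, and peaks with -log10 q of at least 5, or lists cut to the shortest, gave 72 and 7. Start sites of protein-coding transcripts only gave 68 and 8, with Atp5f1 lost. Other peaks within 5 kb were found for 24, 26, 31 and 26 members (WT D0, WT D8, HY D0, HY D8) and within 25 kb for 73 in WT D0. On the deposited fold enrichment the median log2 ratios were -0.0373 (D8 to D0 in WT), -0.1337 (in HY), 0.0424 (HY to WT at D0) and -0.0013 (at D8), and centred on all genes the HY to WT medians were 0.0297 and -0.0506. On that fold scale the members higher and lower were 0 and 1 in WT, 1 and 6 in HY, and 2 and 0 for HY to WT at D8, where centring gave 2 and 2. A 2-fold threshold left 0 higher in any contrast, 1 lower by day in HY and 0 lower in HY at D8. With both peaks covered to 50%, 51.3% of WT D8 and 46.8% of HY D8 peaks were specific by day, and 34.4% (WT D0) and 36.8% (WT D8) by genotype. With 1 bp of overlap, 43.3% (WT D0) and 42.4% (HY D0) were specific by day, and 27.3% (HY D0) and 27.8% (HY D8) by genotype. Lists cut to the shortest gave 39.7% and 41.7% at D0 by day, and 26.7% (HY D0) and 10.3% (WT D0) by genotype. Query peaks with -log10 q of at least 5 gave 46.3% and 46.2% at D0 by day, and 26.9% (HY D0), 5.97% (WT D0) and 9.09% (WT D8) by genotype. Shorter motifs matched 33.7% (NRF1), 41.0% (GABP and ETS), 13.3% (ERR), 45.8% (SP and KLF), 13.3% (CREB) and 37.3% (NF-Y) of members. The other 78 values for counts, medians and shares stayed within 1.5 times the main count or within the counting interval, as did 620 for named genes, where 4 did not (Atp5g2 and Atp5j on the fold scale). The causes of these shifts were not tested. No paired fit was run, and the day ratios of WT and HY are given side by side. Depth limits single genes: for Cox7a1, with 13 to 18 reads, the interval of the WT day ratio ran from 0.742 to 3.63.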
